A study of Mus musculus with 8 samples.

Results

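Ribosome biogenesis and growth genes were examined in undifferentiated spermatogonia, the early germ cells of the adult testis from which sperm production is renewed. The set was chosen by name and holds 50 genes. Of these, 46 encode nucleolar or ribosome assembly factors, and the other 4 are the biosynthetic enzyme genes Odc1, Srm and Cad and the trafficking gene Rabepk. All 50 had a row among the 14853 genes of the authors' deposited table. The study compared 4 samples of genotype TERTCreER/flox:Rosalsl-Tdtomato/+ with 4 of genotype TERTCreER/+:Rosalsl-Tdtomato/+, which are called CreER/flox and CreER/+ here. The mice were C57BL/6 and aged 8-12 weeks. Every mouse received tamoxifen, carried CreER on a Tert allele and had the tdTomato reporter, so the groups differ by whether the opposite Tert allele is floxed or normal. Cells with high MCAM, no KIT and tdTomato signal were sorted on day 7, and their total RNA was sequenced. CreER is driven by Tert, so tdTomato marks cells in which that allele was active, and the labels title the control samples TERT-hetero and the floxed ones TERT-del. Nothing in the labels says how many animals stand behind a sample, so p-values measure only the spread between these samples, which may be technical.

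Ribosomes are assembled in the nucleolus. There RNA polymerase I transcribes a long precursor RNA, small nucleolar RNAs (snoRNAs) guide its chemical modification and cutting, and many proteins fold it into the small and the large subunit. MYC proteins activate many genes of this pathway together with enzymes of polyamine and nucleotide synthesis, and dividing germline progenitors depend on a steady supply of ribosomes. TERT is the catalytic protein of telomerase, and the comparison measures these genes with and without a floxed Tert allele.

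All values of single genes below come from the authors' deposited table, which gives 1 fold change per gene for the whole comparison. Values for each library were not analysed here, so the spread between libraries enters only through the standard error (SE) of the fold change. Levels are mean normalized counts over all libraries. Fold changes are log2 values of CreER/flox over CreER/+, a direction read from the table's name, and a gene was called at an adjusted p under 0.05. The 95% intervals were computed here from the deposited SEs. The targeted gene, Tert, stood at 0.29 (SE 0.26, adjusted p 0.595) per the authors' deposited table, and this value does not check the labels because the exons between the loxP sites were not named in the labels. Markers of the sorted cells were well represented: all 11 genes of the undifferentiated spermatogonia list had rows, with mean counts of 76.2 to 5143, and 10 of them lay below 0 with none called. Markers of spermatids, the haploid cells of the testis, moved with genotype, with 16 of 16 below 0, a median of -1.09, mean counts of 21.8 to 2304 and 7 called lower. Lists of Sertoli, myoid, Leydig, endothelial cells and leukocytes had rows for 13 of 27 genes, with mean counts of at most 316. Of these 13, 6 lay above 0 and 7 below. The Sertoli marker Trf was called higher (0.62) and the myoid marker Actg2 lower (-1.17). Of 9 spermatocyte markers 3 lay above 0 and 6 below, and Sycp2 (-0.53) and Piwil1 (-0.73) were called lower. Of 5 markers of differentiating spermatogonia 2 lay above 0 and 3 below, and none was called. The part of these cells in the values of the members was not tested. In sorted bulk samples, fewer cells of a type and less RNA per cell cannot be told apart.

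Most members had fold changes near 0, more often above it than below. Of the 50 genes, 41 lay above 0, and their median log2 value was 0.085 (1.06-fold). Noc3l rose and Rabepk fell, and no other member was called. Of all genes in the table, 5.36% were called (1.94% higher and 3.42% lower), against 2 of 50 members, so the number of called members was near the background. At an unadjusted p under 0.05, 10 members lay higher and 1 lower, against 9.15% and 10.5% of all genes. Abundant genes in general also lay more often above 0: the table as a whole had 50.1% of genes above 0 and a median of 0.00071, whereas the 7304 genes whose mean count reached 200 had 58.9% above 0, a median of 0.037 and 14.1% at an unadjusted p under 0.05 on the higher side.

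**Figure D1:**
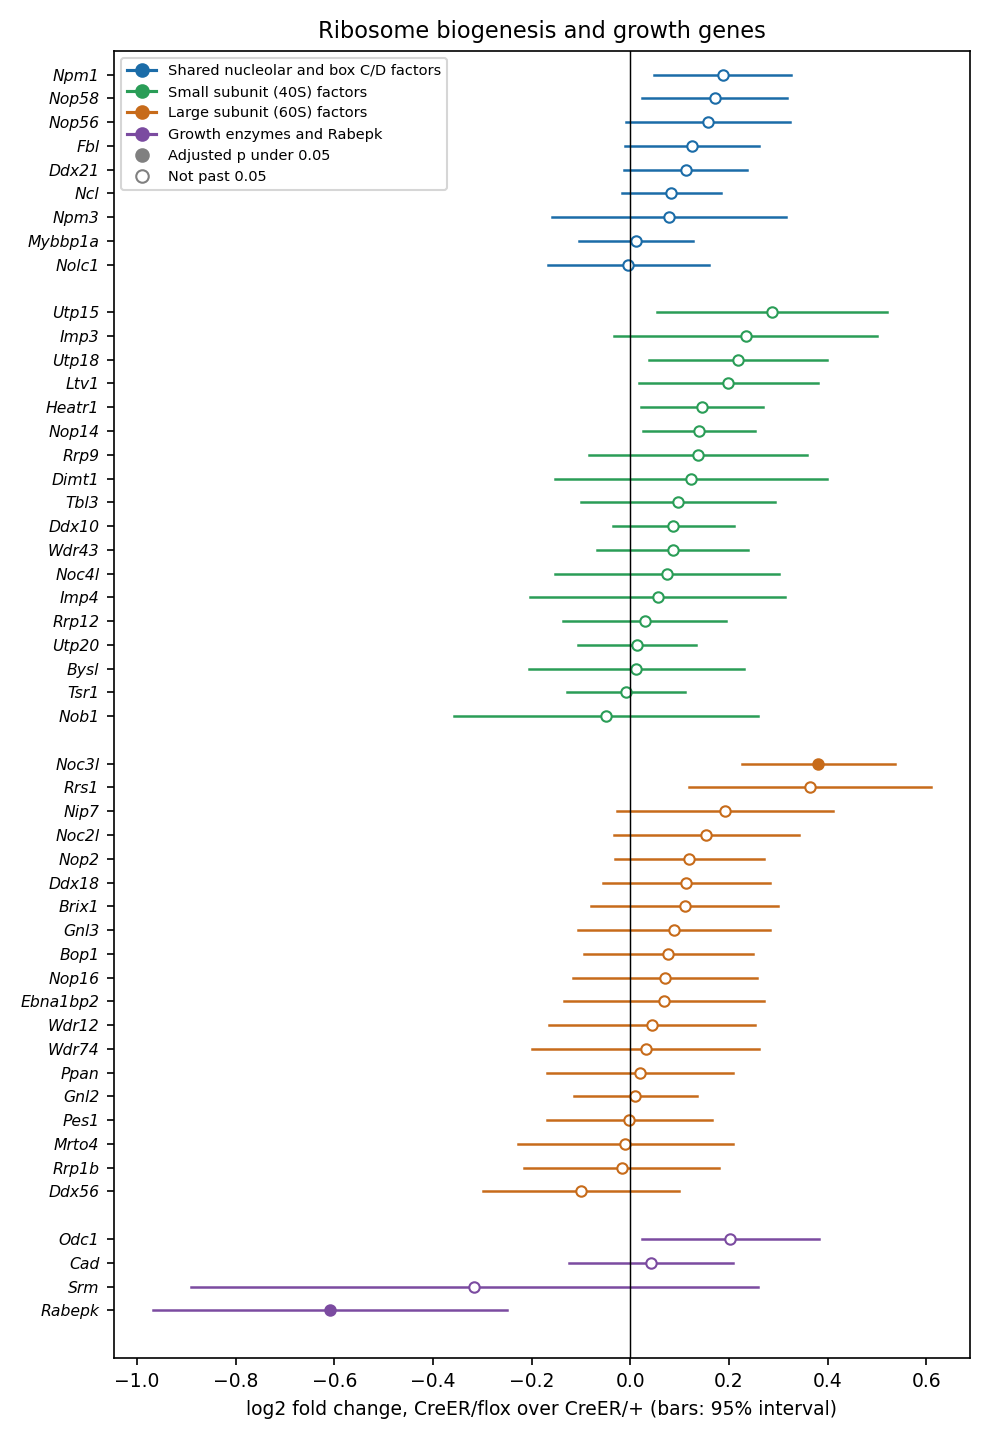
Log2 fold change of each of the 50 genes, CreER/flox over CreER/+, with its 95% interval from the deposited SE. Rows are grouped by role. Filled points passed an adjusted p of 0.05 (Noc3l and Rabepk), and 41 of the 50 points lie to the right of 0.

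The measurements were precise for most members. Their mean counts ran from 62.1 for Srm to 16360 for Ncl with a median of 1072, against 192 for all genes, and 27 members had at least 1000. Their median SE was 0.094, against 0.17 for all genes. For 44 members the 95% interval lay within 0.5 on either side of 0, and 42 members had a fold change of less than 0.2 in size. Among the 46 ribosome biogenesis genes the SD of the fold changes was 0.099, about the size of a member's own SE, so the order of most members cannot be read from these values. Per kilobase of the longest annotated transcript, Npm1 had the highest level (4980 mean counts per kb), followed by Ncl (1995) and Nop14 (1364), and Srm the lowest (46.4). This order depends on the transcript chosen. The lengths used were 1633 bases for Npm1, 8202 for Ncl and 2702 for Nop14, and shorter transcripts of these genes were not tried. Npm1 has processed pseudogenes, and the treatment of reads shared with such copies was not stated by the submitters.

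**Figure D2:**
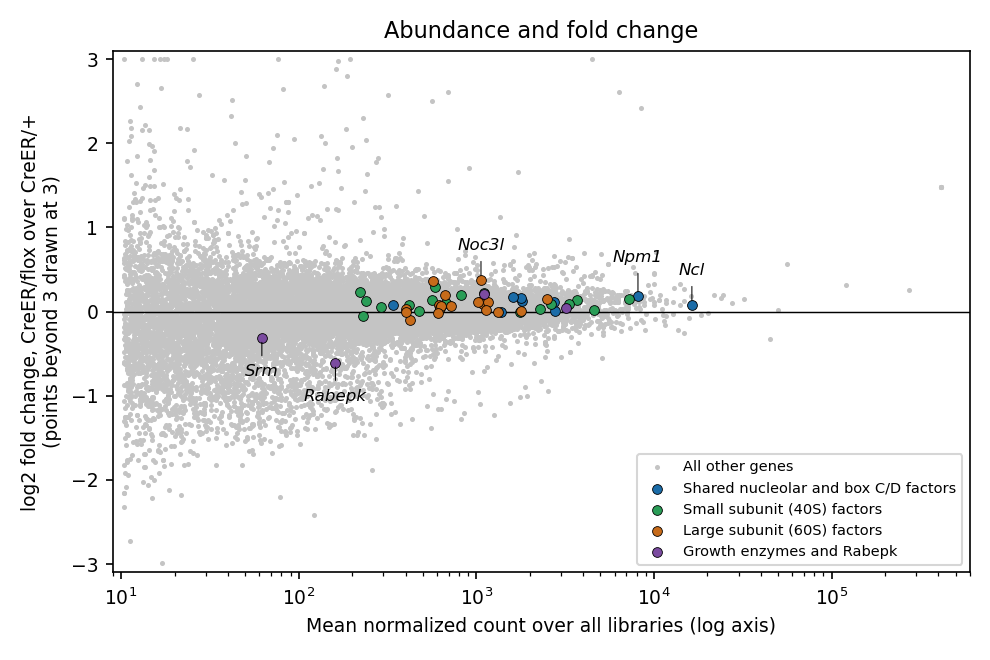
Mean normalized count (x axis, log scale) against log2 fold change (y axis) for all genes in grey and the 50 members in colour. The members lie in the abundant part of the table, between 62.1 and 16360, and Rabepk and Srm are the 2 members farthest below 0.

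Sequences upstream of the members were examined because MYC with its partner MAX binds the E-box CACGTG. RefSeq promoter windows of 300 bases (250 before and 50 after the start, build GRCm38.p6) were found for 42 of the 50 members. CACGTG, which reads the same on both strands, occurred in 9 of the 42 (21.4%), against 8.09% of 27025 genes with a window and 11.8% of the 11076 protein-coding genes of the authors' deposited table that had one. CCGGAAG, a core that ETS factors recognise, occurred on either strand in 15 members (35.7%), against 9.93% of all windows and 18.9% of those in the table. AAGATGGC, a YY1 core, was found in Imp4 alone, or 2.38% of members against 3.19% of all windows and 4.94% of those in the table. Each motif was counted in any window of a gene, and no match of one motif overlapped a match of another in a member. The 9 members with CACGTG had a median log2 fold change of 0.056, and the 33 without it 0.087, and this difference was not tested. A match describes letters in a window and is not evidence of binding.

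The windows of the called genes are shown first, with any match to the 3 motifs in capitals, 5′ to 3′ on the strand of the gene. Noc3l (chr19:38819188-38819487, minus strand) holds a CCGGAAG match on the reverse strand that begins 25 bases after the start, and no CACGTG. RefSeq gives Rabepk 2 overlapping windows. The one printed (chr2:34799742-34800041, minus strand) holds a CCGGAAG match on the reverse strand, and the other holds none of the motifs.
Noc3l: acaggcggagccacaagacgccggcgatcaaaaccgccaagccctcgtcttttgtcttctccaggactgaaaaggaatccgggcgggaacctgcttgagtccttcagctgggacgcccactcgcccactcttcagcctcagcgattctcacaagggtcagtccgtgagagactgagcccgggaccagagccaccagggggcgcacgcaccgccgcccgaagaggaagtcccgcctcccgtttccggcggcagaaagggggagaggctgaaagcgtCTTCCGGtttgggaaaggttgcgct
Rabepk: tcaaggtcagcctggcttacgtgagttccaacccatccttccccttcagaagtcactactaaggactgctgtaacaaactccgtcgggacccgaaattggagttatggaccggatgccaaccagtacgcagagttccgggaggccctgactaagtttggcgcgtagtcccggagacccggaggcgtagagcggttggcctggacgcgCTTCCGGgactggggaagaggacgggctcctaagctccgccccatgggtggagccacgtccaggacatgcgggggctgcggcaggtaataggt

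The 4 members of smallest p that hold the E-box are Utp18 (chr11:93885717-93886016, minus strand), Ltv1 (chr10:13193088-13193387, minus strand), Nop2 (chr6:125131633-125131932, plus strand) and Wdr43 (chr17:71615965-71616264, plus strand). They are shown to compare where CACGTG sits: it lies upstream of the start in Utp18 and Nop2, and downstream of it in Ltv1 and Wdr43. Utp18, Ltv1 and Nop2 also hold CCGGAAG matches.
Utp18: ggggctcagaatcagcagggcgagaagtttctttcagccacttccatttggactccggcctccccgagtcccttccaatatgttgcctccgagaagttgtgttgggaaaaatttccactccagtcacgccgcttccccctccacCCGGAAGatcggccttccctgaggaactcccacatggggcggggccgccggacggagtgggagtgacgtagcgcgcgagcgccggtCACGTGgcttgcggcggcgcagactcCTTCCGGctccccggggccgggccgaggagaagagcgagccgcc
Ltv1: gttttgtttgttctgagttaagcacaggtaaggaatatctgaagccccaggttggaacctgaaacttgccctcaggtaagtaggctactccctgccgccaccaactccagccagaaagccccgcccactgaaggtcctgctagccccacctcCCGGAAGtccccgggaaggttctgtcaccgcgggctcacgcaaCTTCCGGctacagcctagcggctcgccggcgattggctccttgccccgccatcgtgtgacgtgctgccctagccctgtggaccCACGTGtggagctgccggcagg
Nop2: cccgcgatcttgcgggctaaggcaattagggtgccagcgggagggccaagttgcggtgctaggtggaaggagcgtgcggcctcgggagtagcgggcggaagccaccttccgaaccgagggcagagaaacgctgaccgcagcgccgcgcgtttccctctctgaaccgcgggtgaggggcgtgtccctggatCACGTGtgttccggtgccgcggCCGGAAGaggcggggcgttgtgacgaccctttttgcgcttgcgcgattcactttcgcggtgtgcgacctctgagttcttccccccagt
Wdr43: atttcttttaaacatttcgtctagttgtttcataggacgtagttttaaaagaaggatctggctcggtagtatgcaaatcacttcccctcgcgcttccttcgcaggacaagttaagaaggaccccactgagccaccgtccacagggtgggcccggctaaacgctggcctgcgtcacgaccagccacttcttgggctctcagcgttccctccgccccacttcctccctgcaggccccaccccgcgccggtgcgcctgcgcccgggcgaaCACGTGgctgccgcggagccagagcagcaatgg

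Factors that serve the nucleolus as a whole, or that sit on box C/D snoRNAs, comprised 9 members. Of these, 8 lay above 0 with a median of 0.11, and none was called. Npm1 encodes nucleophosmin, a main protein of the outer nucleolus, and stood at 0.19 (SE 0.07, 95% interval 0.049 to 0.33, adjusted p 0.0941, mean count 8132) in the authors' deposited table. Ncl, for nucleolin, the most abundant member by mean count, stood at 0.084 (SE 0.05, adjusted p 0.370) in the same table, and its interval reached from just below 0 to about the value of Npm1. Npm3, a relative of Npm1, stood at 0.078 in the authors' deposited table. The helicase gene Ddx21, which acts in both transcription and processing of the precursor RNA, stood at 0.11, Mybbp1a, a regulator of precursor transcription and processing, at 0.012 and the snoRNA chaperone gene Nolc1 at -0.0040 in the authors' deposited table.

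The core proteins of box C/D particles, which add methyl groups to ribosomal RNA, all had positive values. In the authors' deposited table the methyltransferase gene Fbl stood at 0.13 (SE 0.07, adjusted p 0.299), and the scaffold genes Nop56 and Nop58 at 0.16 (SE 0.09, adjusted p 0.289) and 0.17 (SE 0.07, 95% interval 0.024 to 0.32, adjusted p 0.163, mean count 1614). Snu13, the remaining core protein and not itself a member, was called higher at 0.33 (SE 0.10, adjusted p 0.0315) in that table. The interval of Snu13, 0.13 to 0.54, overlaps those of Fbl, Nop56 and Nop58, and the difference between them was not tested.

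Small-subunit factors numbered 18. Of these, 16 lay above 0 with a median of 0.092, and none was called. The UTP-A complex, which binds the precursor RNA first, was represented in the authors' deposited table by Utp15 at 0.29 (SE 0.12, 95% interval 0.054 to 0.52, adjusted p 0.135, mean count 583), Heatr1 at 0.15 (SE 0.06, 95% interval 0.022 to 0.27, adjusted p 0.156, mean count 7287) and Wdr43 at 0.086. Of the UTP-B complex, Utp18 stood at 0.22 (SE 0.09, 95% interval 0.038 to 0.40, adjusted p 0.145, mean count 1101) and Tbl3 at 0.097 in the same table. The intervals of these 5 genes overlap. Rrp9, which is specific to the U3 snoRNA particle, stood at 0.14 and the large scaffold gene Utp20 at 0.014 in the authors' deposited table.

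Imp3 and Imp4 join Mphosph10 on the U3 snoRNA. Mphosph10, not a member, was called higher at 0.29 (SE 0.07, adjusted p 0.00325), while Imp3 stood at 0.23 (SE 0.14, adjusted p 0.334) and Imp4 at 0.056 (SE 0.13, adjusted p 0.876) per the authors' deposited table. Imp3 had the lowest mean count of the ribosome biogenesis members, 221, and a correspondingly wide interval. Nop14 and its partner Noc4l stood at 0.14 (SE 0.06, 95% interval 0.026 to 0.25, adjusted p 0.136, mean count 3685) and 0.075 in the authors' deposited table, and the helicase gene Ddx10 at 0.087. Among the remaining small-subunit members, the authors' deposited table gave values for the export factor gene Rrp12 (0.029), the assembly factor genes Bysl (0.012) and Tsr1 (-0.0086), the nuclease gene Nob1 (-0.049) and the methylase gene Dimt1 (0.12), with Ltv1, which leaves the particle late, at 0.20 (SE 0.09, 95% interval 0.017 to 0.38, adjusted p 0.199, mean count 821).

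Large-subunit factors numbered 19. Of these, 15 lay above 0 with a median of 0.071, and 1 was called. Noc3l (Entrez gene 57753, chromosome 19, 38788121 to 38820310 in GRCm38.p6), which pairs with Noc2l on precursors of the large subunit on their way out of the nucleolus, was 1.30-fold higher in CreER/flox. Its log2 fold change was 0.38 (SE 0.08, 95% interval 0.23 to 0.54, p 1.46e-06, adjusted p 0.000492, mean count 1063) in the authors' deposited table. It had the highest fold change and the smallest p of the 50 members. Noc2l stood at 0.15 (SE 0.10, adjusted p 0.379), and Cebpz, the other partner of Noc2l and not a member, at 0.073 (SE 0.07, adjusted p 0.615) per the authors' deposited table. Of the genes on either side of Noc3l, Tbc1d12 was called lower (-0.63, SE 0.21, adjusted p 0.0460) and Plce1 stood at -0.26 per the authors' deposited table.

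Rrs1, which with Rpf2 loads the smallest ribosomal RNA onto the large subunit, had a value close to that of Noc3l but a wider error. It stood at 0.36 (SE 0.13, 95% interval 0.12 to 0.61, adjusted p 0.0599, mean count 571) in the authors' deposited table, just short of the threshold. Rpf2, not a member, stood at 0.11 (SE 0.13, adjusted p 0.716). The 3 genes of the PeBoW complex, needed for processing of the large-subunit RNA, lay near 0 in the authors' deposited table, with Bop1 at 0.078 (SE 0.09), Wdr12 at 0.044 (SE 0.11) and Pes1 at -0.0024 (SE 0.09). Intervals for Bop1 and Wdr12 reached 0.25 and overlap the lower end of that of Noc3l, and the difference was not tested.

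The other large-subunit members encode assembly factors, helicases, GTPases and a methyltransferase, and were scattered around a small positive value. In the authors' deposited table Nip7 stood at 0.19, Nop2, an RNA methyltransferase gene, at 0.12, the helicase gene Ddx18 at 0.11 and Brix1 at 0.11. Gnl3 encodes nucleostemin, a GTPase known for its abundance in stem cells, and stood at 0.089 (SE 0.10, adjusted p 0.694), beside the related Gnl2 at 0.011. Nop16 (0.071), Ebna1bp2 (0.068), Wdr74 (0.031) and Ppan (0.020) were positive in the authors' deposited table. Mrto4 (-0.0096), Rrp1b (-0.018) and the helicase gene Ddx56 (-0.10, SE 0.10) were the large-subunit members below 0 besides Pes1 in the same table. Of the genes that act with Wdr74 at an early step, Mak16 was called higher (0.35, SE 0.09, adjusted p 0.00474), Rpf1 stood at 0.17 and Rrp1 at -0.15 in the authors' deposited table. None of these 3 is a member.

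The 4 growth genes had values of both signs. Odc1, the rate-limiting enzyme of polyamine synthesis and a classical MYC target, stood at 0.20 (SE 0.09, 95% interval 0.025 to 0.38, adjusted p 0.177, mean count 1111) in the authors' deposited table. Srm, the spermidine synthase of the same pathway, stood at -0.32 (SE 0.29, 95% interval -0.89 to 0.26, adjusted p 0.608). At a mean count of 62.1 it was the least precise member, and its interval holds values of both signs. Cad, the enzyme of the first steps of pyrimidine synthesis, stood at 0.042 (SE 0.08, adjusted p 0.847, mean count 3182) in the authors' deposited table.

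Rabepk (Entrez gene 227746, chromosome 2, 34774609 to 34800196 in GRCm38.p6) was 1.53-fold lower in CreER/flox and had the largest fold change in size of the 50 members. Its log2 fold change was -0.61 (SE 0.18, 95% interval -0.97 to -0.25, adjusted p 0.0255, mean count 161) in the authors' deposited table. It encodes a kelch-repeat protein of transport from endosomes to the Golgi and is counted among MYC targets, but it has no known place in ribosome assembly. The RefSeq span of Rabepk overlaps the end of the chaperone gene Hspa5 on the opposite strand, and Hspa5 stood at 0.11 (SE 0.07, adjusted p 0.361) per the authors' deposited table. Rabepk fell in the same comparison in which 16 of 16 spermatid markers lay below 0, and the part of spermatid RNA in its value was not tested.

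Both calls rest on a normal distribution of the deposited test statistic, whose central part was 1.45 times as wide as that distribution. With this width divided out, neither gene passed (adjusted p 0.304 for Noc3l and 0.639 for Rabepk). With a t distribution of 6 degrees of freedom the adjusted p was 0.439 for both, and none of the 14853 genes was called. The calls among other pathway genes and among small RNAs within members have the same limit. Their smallest unadjusted p in the deposited test was 5.66e-06 (Snord70), above the 1.46e-06 of Noc3l, so none of them passed under either setting.

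Other genes of the pathway had values of similar size. Lists of small-subunit and large-subunit factors, snoRNA particle and assembly factors, polymerase I transcription, the nuclear exosome and polyamine and nucleotide synthesis held 143 further genes, of which 140 had rows under the names used. Of these, 112 lay above 0 with a median of 0.11, 8 were called higher (5.71%, against 1.94% of all genes and 2.90% of those whose mean count reached 200) and none lower. None of the 8 passed with the width of the test statistic divided out or with the t distribution. At an unadjusted p under 0.05, 22 lay higher (15.7%, against 14.1% of genes whose mean count reached 200) and 2 lower. Beside Mphosph10, Wdr36 was called among 39 small-subunit factors (0.25, SE 0.08, adjusted p 0.0284), and Sdad1 beside Mak16 among 41 large-subunit factors (0.25, SE 0.08, adjusted p 0.0430), all per the authors' deposited table. Snu13 was the called gene among 12 snoRNA particle and assembly factors. Taf1d, a subunit of the factor that recruits polymerase I, was the called gene among 13 transcription genes (0.38, SE 0.09, adjusted p 0.00319), and Exosc3 among 14 of the exosome, which trims precursor RNA (0.36, SE 0.12, adjusted p 0.0493), all per the authors' deposited table. Amd1, which supplies the substrate that Srm uses, was the called gene among 21 of polyamine and nucleotide synthesis (0.30, SE 0.08, adjusted p 0.0142) in the same table. The MYC family gene Mycn stood at 0.31 (SE 0.10, adjusted p 0.0501, mean count 611) in the authors' deposited table, just above the threshold. Other genes of the MYC family were not examined here.

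**Figure D3:**
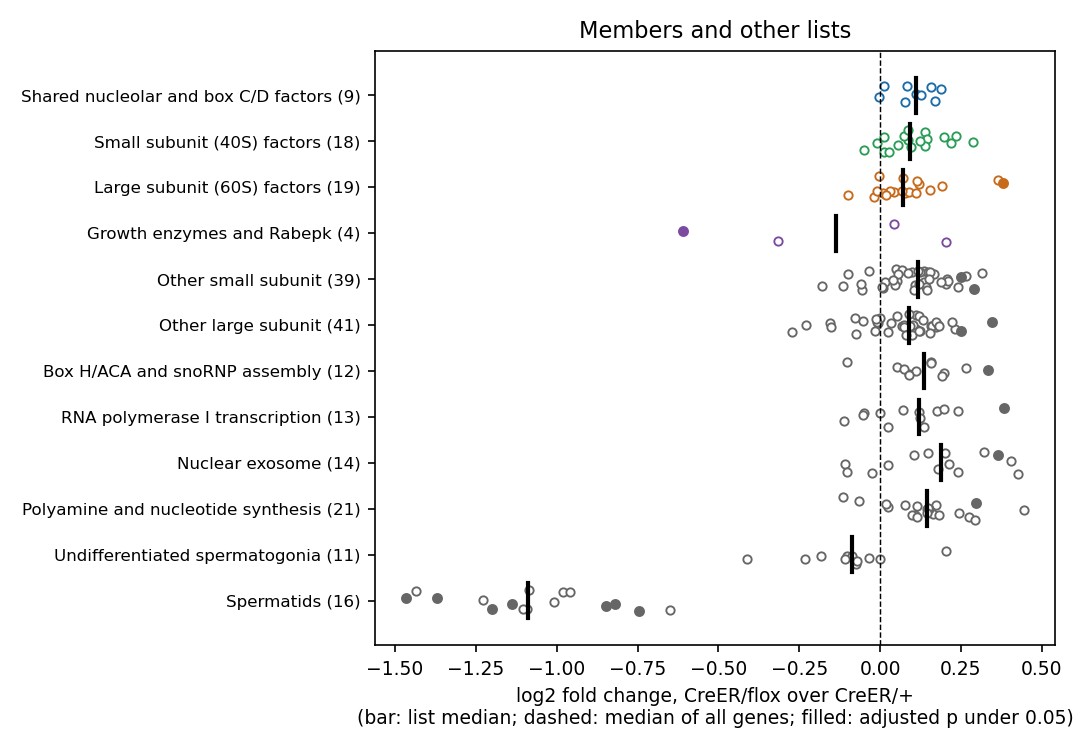
Log2 fold changes (x axis) of the members in their 4 role groups, of the other pathway lists and of 2 marker lists, with the number of measured genes in brackets. Thick bars are list medians and the dashed line is the median of all genes. The ribosome lists have medians between 0.071 and 0.19, and the spermatid list lies apart at -1.09.

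Across the 50 members the correlation of log2 fold change with log2 mean count was r = 0.34 (Spearman's rho 0.19), with GC content of the transcript r = -0.23 (rho -0.32) and with transcript length r = 0.036 (rho -0.038). Over 13690 protein-coding genes the same values were r = 0.23, -0.099 and 0.016. These genes come from the same libraries and are not independent, so the correlations are descriptions. With a fitted trend of all 3 properties removed, the median of the members was 0.046 and 34 of 50 lay above 0, against a median of 0.0095 over all 13690 genes. The medians of the role groups were then 0.062 for shared nucleolar factors, 0.057 for the small subunit and 0.014 for the large subunit. For the 4 growth genes, Rabepk among them, the median was -0.043. Noc3l (0.29, adjusted p 0.0142) and Rabepk (-0.61, adjusted p 0.0349) were still called. Calls were fewer over all genes too: 2.88% of the 13690 genes were called with the trend removed. As deposited, 5.14% of 13743 protein-coding genes were called. Of the 8 other pathway genes called as deposited, none was called with the trend removed, and their values lay between 0.12 and 0.27. The large-subunit list then had 1 call of its own, Lyar (named after its values were seen), which was lower (-0.35, adjusted p 0.0173) and had stood at -0.23 as deposited.

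**Figure D4:**
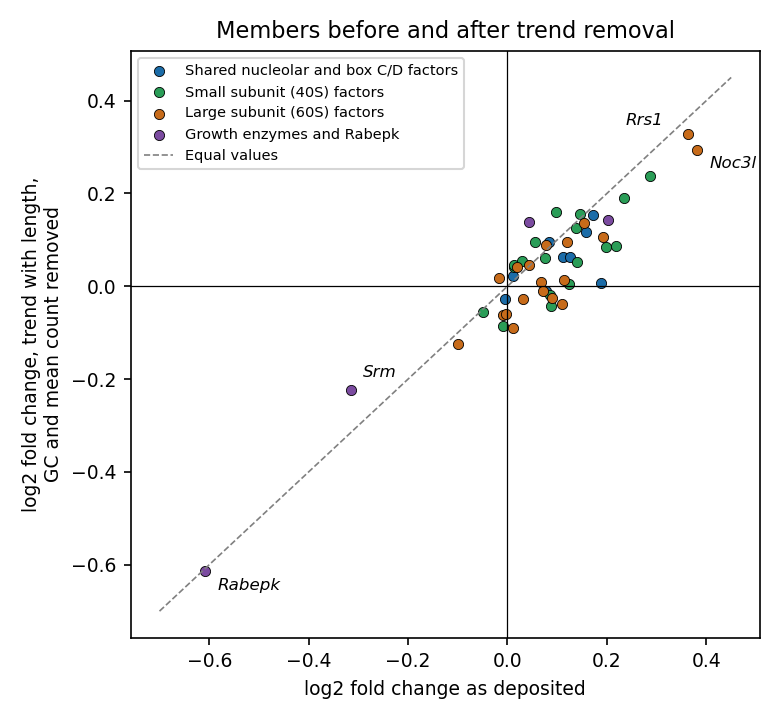
Log2 fold change of each member as deposited (x axis) and after removal of a trend fitted to length, GC content and abundance (y axis). Most points lie below the dashed line of equal values, and the median falls from 0.085 to 0.046. Rabepk stays lowest, and Rrs1 and Noc3l highest.

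Several members carry snoRNA genes in their introns, and these had larger fold changes than their hosts. Host introns release snoRNAs during splicing, and total RNA libraries can hold both products. RefSeq annotates 22 small RNAs within 8 members, and 12 of them, in 6 members, had rows of their own. All 12 lie on the strand of the host and outside its exons in GENCODE M21, and all 12 had higher fold changes than the host. For 7 of the 12 the 95% interval lay wholly above that of the host. The 5 that were called had SEs of 1.65 (Snord70) to 4.60 (Snord82) times the median SE of genes of similar mean count. Snord91a, Snord92, Snord53 and Snord19, none of them called, had mean counts of 13.8 to 19.0, near the lowest of the table (10.4).

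The 5 small RNAs that were called higher are shown, to set them beside hosts that were not called. These calls also rest on the normal distribution, and none passed with the width of the test statistic divided out or with the t distribution. Box C (here the letters TGATGA) and box D (CTGA, the match nearest the end), which bind the core proteins Fbl, Nop56, Nop58 and Snu13, are in capitals. Sequences are the GENCODE M21 transcripts, 5′ to 3′. Gm24148 is listed by RefSeq as a miRNA gene and by GENCODE as a snoRNA, and holds both motifs. Snord70 and Snord57 do not hold the letters TGATGA exactly.
Snord82: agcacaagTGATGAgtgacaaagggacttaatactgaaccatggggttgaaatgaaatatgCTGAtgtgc
Gm24148: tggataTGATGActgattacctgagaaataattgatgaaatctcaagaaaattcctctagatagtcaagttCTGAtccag
Snord70: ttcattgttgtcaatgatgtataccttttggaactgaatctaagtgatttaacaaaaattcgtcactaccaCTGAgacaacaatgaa
Snord110: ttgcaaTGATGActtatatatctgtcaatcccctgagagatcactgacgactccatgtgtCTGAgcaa
Snord57: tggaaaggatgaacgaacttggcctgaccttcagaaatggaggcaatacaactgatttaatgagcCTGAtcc

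Ncl, the most abundant host, holds 3 measured small RNAs. Snord82 (2.57, SE 0.61, adjusted p 0.00280, mean count 318) and Gm24148 (2.98, SE 0.74, adjusted p 0.00464, mean count 167) were called higher, while Ncl stood at 0.084, all in the authors' deposited table. Snora75, also within Ncl, stood at 1.21 (SE 0.51, adjusted p 0.142). Within Nop56, Snord110 was called at 3.02 (SE 0.84, adjusted p 0.0145, mean count 76.4) and Snord57 at 2.09 (SE 0.63, adjusted p 0.0269, mean count 133), against 0.16 for the host in the authors' deposited table. Within Nop58, Snord70 was called at 2.52 (SE 0.56, adjusted p 0.00115, mean count 42.0), and Snord11 stood at 1.40 (SE 0.72, adjusted p 0.263), against 0.17 for the host in the authors' deposited table. Small RNAs of Gnl3, Wdr43 and Tsr1 were not called. They ranged in the authors' deposited table from 0.094 for Snord91a in Tsr1 to 2.33 for Snord69 in Gnl3 (SE 0.83, adjusted p 0.0735).

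All 99 snoRNA rows of the table, 11 of them within members, lay above 0. Of the 99, 38.4% were called higher, and 79.8% lay higher at an unadjusted p under 0.05, against 5 and 7 of the 12 small RNAs within members. The 88 snoRNA rows outside members had a median of 1.25, and the 12 small RNAs within members one of 1.74, a difference that was not tested. Members without an annotated small RNA had a median of 0.078 over 42 genes, close to the 0.087 of the 6 members that hold a measured one. Whether reads of these small RNAs also counted for the host genes was not tested.

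**Figure D5:**
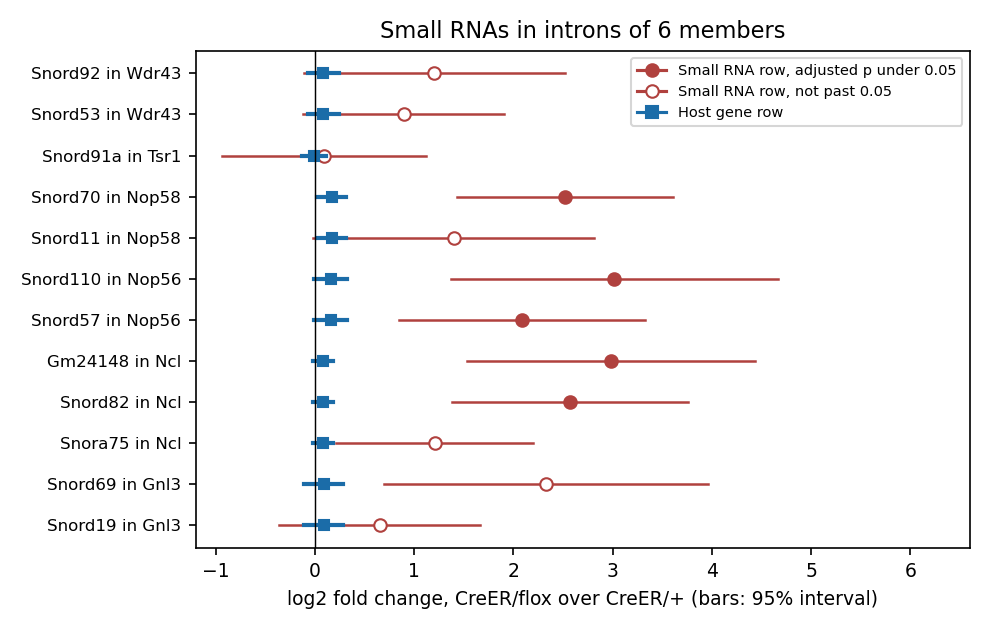
Log2 fold change (x axis) of 12 small RNAs within introns of 6 members, in red with 95% intervals, and of the host gene, as blue squares. Filled circles passed an adjusted p of 0.05. Host genes lie between -0.0086 and 0.17, and the small RNAs between 0.094 and 3.02.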

How the data were processed

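Total RNA of sorted cells was sequenced in 4 CreER/flox and 4 CreER/+ samples, grouped by the labels' titles. Per the submitters' processing notes the tools were DESeq2, Bowtie, Bowtie2 2.0.0-6, TopHat2 2.0.4 and Trim Galore, and the build was GRCm38 (mm10). The read counter and its strand setting were not given in the sources used here. Per the file headers, the authors deposited 1 comparison holding a mean normalized count signal over all libraries, log2 fold changes with SEs, a test statistic (score), and p-values with adjusted p-values. That statistic equalled the log2 fold change over its SE to within 2.58e-07, and the adjusted p-values equalled a Benjamini-Hochberg adjustment over all rows to within 7.41e-06.

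No model across libraries was fitted, and library depths were not analysed here. Summed over distinct rows, mean counts came to 9627624, none was below 10.4, and no member shared its values with another row. Members were matched by symbol, and 14828 of 14853 rows matched a RefSeq gene of GRCm38.p6 by Entrez ID. The members and all lists were chosen with earlier results of these data known, so no test over a list was made. Every member is named. In full stand called members and those at an unadjusted p under 0.05. Other pathway lists name their called genes. Longest GENCODE M21 transcripts gave length and GC content, and the trend was fitted to 13690 protein-coding rows by weighted least squares with linear and squared terms. Values with the trend removed depend on this choice of transcript, and shorter transcripts were not tried. Steps were tested on simulated data. Calculations used scipy 1.17.1, numpy 2.4.6 and pandas 2.3.3 under Python 3.11.15, with plots from matplotlib 3.10.9. Alternatives varied the threshold, the null distribution, the genes tested and the trend.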

Additional observations from a re-analysis of the deposited data

How the results depend on the processing

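The median log2 fold change of the members was 0.085, and all 5 alternatives run for it gave positive values. Medians lay between 0.046 (trend removed) and 0.086 (genes whose mean count reached 100). The remaining alternative, a mean weighted by inverse squared SE in place of the median, was 0.091. The number of members above 0 was 41 as deposited and when centred on the median of all genes, and 34 with the trend removed, where the cause was not tested. The 2 called members were again called after centring, among genes whose mean count reached 100, with identical rows counted a single time and with the trend removed. Beside these 2 of 50, 5.34% of all genes were called after centring and 2.88% of 13690 protein-coding genes with the trend removed. Among the 9407 genes whose mean count reached 100, 609 were called, and 790 genes were called with identical rows counted a single time. The number of called members was 1 at an adjusted p of 0.01 (Noc3l, against 1.78% of all genes) and 4 at 0.1 (with Npm1 and Rrs1, against 9.02%), 1 against a minimum log2 fold change of 0.1 (Noc3l, adjusted p 0.0336, with Rabepk at 0.156, against 1.59%), and 0 both with a t distribution of 6 degrees of freedom and with the null SD taken from the quartiles. Under those 2 settings the whole table had 0 and 5 called genes, against 796 as deposited, and 4 and 3 members had an unadjusted p under 0.05, against 11.1% and 6.64% of all genes. Of the 9 other members at an unadjusted p under 0.05, values could move only under centring, which shifts all genes alike, and trend removal. With the trend removed Npm1 was 0.0066 (adjusted p 0.985), Nop14 0.052, Ltv1 0.084 and Utp18 0.087, and Odc1, Nop58, Heatr1, Utp15 and Rrs1 lay between 0.14 and 0.33, none of the 9 being called. No paired analysis was possible because values of single libraries were not analysed here, and leaving out replicates was not run for the same reason. Depth limits mainly Srm, whose interval spans -0.89 to 0.26. The 95% intervals rest on the deposited SEs and a normal distribution and would be wider under the t distribution.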

Other observations

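Protein-coding genes whose annotation overlaps a member gave 15 further rows, of which 11 lay below 0, while 41 of 50 members lay above it. Their mean counts ran from 15.5 for Scx to 3680 for Hspa5, whereas the members had a median of 1072. Of the 15, 1 was called, against 5.36% of all genes. It was Cfap57, a gene of motile cilia and flagella that overlaps Ebna1bp2 on the opposite strand. Cfap57 was lower (-0.93, SE 0.19, adjusted p 0.000315, mean count 230) in the authors' deposited table, and Ebna1bp2 stood at 0.068. Dnali1, a dynein chain gene of flagella that overlaps Gnl2 on the opposite strand, stood at -0.70 (SE 0.28, adjusted p 0.113), and Gnl2 at 0.011, in the authors' deposited table. Idh3b, opposite Nop56, stood at -0.17 (SE 0.11), Srr, opposite Tsr1, at -0.12 (SE 0.09) and Kif2a, opposite Dimt1, at 0.015 (SE 0.06) in the same table. The strand setting of the counting was not stated by the submitters, and the part of these partners in the values of the members was not tested.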
